A study of Canis lupus familiaris with 12 samples.

Results

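In canine myoblasts, 44 of 14736 gene rows (0.299%) met all limits of a choice on RNA levels relative to the luciferase control. They were low with human DUX4 and canine DUXC, and stood at no less than 0.75 times the control with the isoform DUXC-ALT. Without the DUXC-ALT limit, 204 rows met the other limits. With DUXC-ALT the 44 rows stood at 0.755 to 1.26 times the control, with a median of 0.857. They were chosen from the measured levels. The level of a row in a library was its CPM (the read count scaled to the total gene count of that library), and a group value was the mean CPM of 3 libraries plus 0.1. A member had a mean of at least 1 CPM with luciferase, stood at no more than 0.5 times luciferase with DUX4 and with DUXC, and stood at no less than 0.75 times luciferase with DUXC-ALT. All levels relative to luciferase were used in that choice, so for the members they are given as a description, and no p-value is printed for them. Where edgeR calls against luciferase are counted, the count stands beside the share of all rows called and is not support for the members. The deposited tables as used here carry no gene names, so a gene is cited by its row number in the DUX4 gene table, and no function, position or sequence can be attached to it.

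DUX4 is a double homeobox transcription factor that is normally active in the early embryo and in the germ line. Its misexpression in skeletal muscle underlies facioscapulohumeral muscular dystrophy, where it is known chiefly as an activator of genes that muscle cells do not use. DUXC is a dog gene of the same family, and DUXC-ALT is an isoform of it.

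The study placed each factor in immortalized canine myoblasts, the dividing precursors of muscle fibres, on pCW57.1, a lentiviral vector whose insert is switched on by doxycycline. There were 3 libraries each for human DUX4, DUXC, DUXC-ALT and the control insert, luciferase. The protocol text gives 1 ug/ml doxycycline over 24 h to all samples. The sample tags contradict it for luciferase, where they read no doxycycline, and name doxycycline for the 9 others. The insert and doxycycline therefore cannot be told apart in a level relative to luciferase. Of the groups tagged doxycycline, only DUXC-ALT held the members at no less than 0.75 times luciferase, as their choice required. Nothing in the labels shows that replicates were separate cultures, so their spread may be technical. Muscle markers could not be checked without gene names. Libraries held 15556477 to 20591033 gene counts, and replicates correlated at 0.997 to 0.998 across rows on a log2 scale. In bulk RNA, fewer cells that express a gene and less RNA per cell cannot be told apart.

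The members are a subset of the rows low with both DUX4 and DUXC. Of 12138 joined rows with at least 1 CPM in luciferase cells, 541 (4.46%) stood at no more than 0.5 times luciferase with DUX4, 532 (4.38%) did so with DUXC, and 204 (1.68%) with both. Among these 204 rows, 44 (21.6%) met the DUXC-ALT criterion, 70 lay between 0.5 and 0.75 times luciferase with DUXC-ALT, and 90 (44.1%) stood at no more than 0.5 times luciferase there too. The 3 comparisons share the luciferase libraries. Over all 12138 rows, 90.3% met the DUXC-ALT criterion. At its threshold, just inside lay gene rows 13229 and 3832, at 0.755 and 0.756 times luciferase, and just outside lay rows 1286 and 7897, at 0.732 and 0.731 times.

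**Figure D1:**
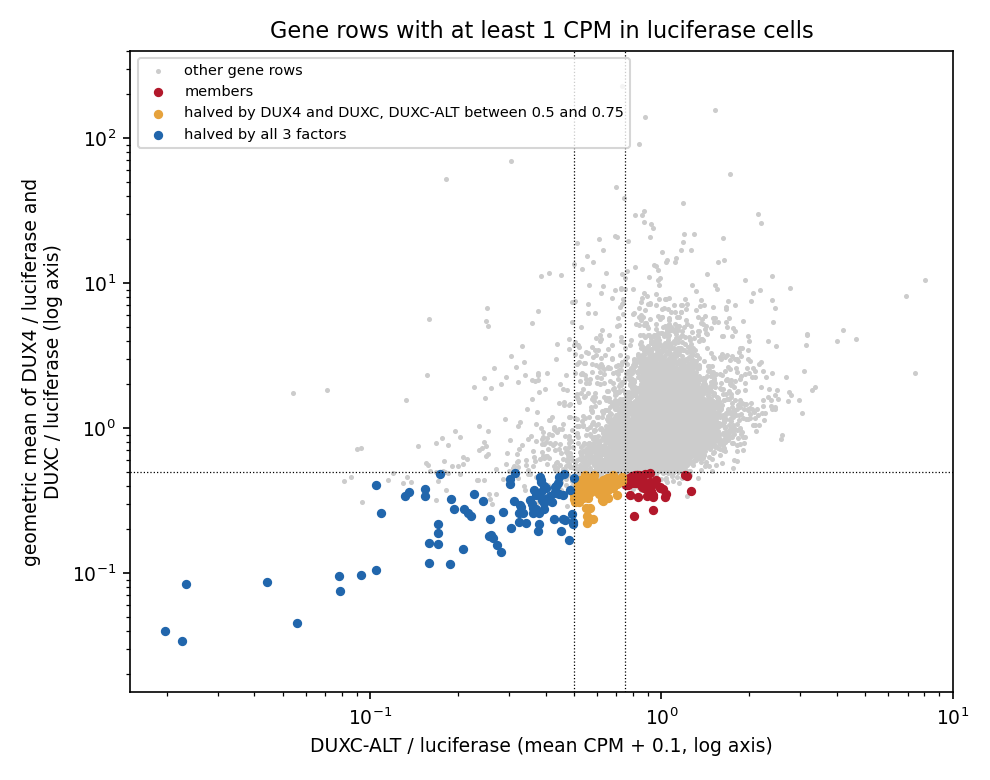
Each point is 1 of 12138 gene rows with at least 1 CPM in luciferase cells. The horizontal axis is the DUXC-ALT level over luciferase, and the vertical axis is the geometric mean of the DUX4 and DUXC levels over luciferase, both on log axes with 0.1 CPM added. Dotted lines mark 0.5 and 0.75. The 44 members lie below the line at 0.5 and to the right of the line at 0.75. Other rows can lie there too, since a mean of both factors below 0.5 does not need each of them to be below it.

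Relative to luciferase, the median member stood at 0.441 times with DUX4 (0.281 to 0.498 over the 44), 0.390 times with DUXC (0.172 to 0.491) and 0.857 times with DUXC-ALT (0.755 to 1.26). Over all 12138 rows the medians were 0.974, 0.987 and 1.06 times. No member, that is 0, stood at 0.2 times luciferase or less with DUX4, and 1 did so with DUXC. With DUX4, 20 of the 44 lay between 0.45 and 0.5, and with DUXC 8 did. Summed over the members, levels were 644.7 ± 15.9 CPM with DUX4, 566.0 ± 7.79 CPM with DUXC, 1320 ± 13.3 CPM with DUXC-ALT and 1466 ± 34.9 CPM with luciferase (SD, n = 3 libraries each). The groups of libraries did not overlap in this sum. For DUX4 and DUXC against luciferase and DUXC-ALT, the choice of the members largely fixes that.

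The members were also compared library by library. All 44 had every DUX4 library below every luciferase library, as did 39.3% of the 12138 rows, and all 44 had every DUXC library below every luciferase library, as did 38.5%. The DUX4 and DUXC libraries were likewise all below the DUXC-ALT libraries in 44 of 44, against 34.9% of rows. These orders follow from the choice of the members, and nothing is read from them. A stricter separation was less complete. Every DUX4 library stood at no more than 0.5 times the lowest luciferase library in 18 of 44, beside 2.64% of the 12138 rows. Every DUXC library did so in 28 of 44, beside 2.38%. The limit of 0.5 times luciferase in the choice bears on these counts, so they are a description too. In edgeR's quasi-likelihood test, with Benjamini-Hochberg adjustment at 0.05 over all rows, all 44 were called lower with DUX4, beside 35.8% of 13629 rows tested, and all 44 with DUXC, beside 37.4% of 13693. These calls use the contrasts that chose the members, and nothing is read from them.

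**Figure D2:**
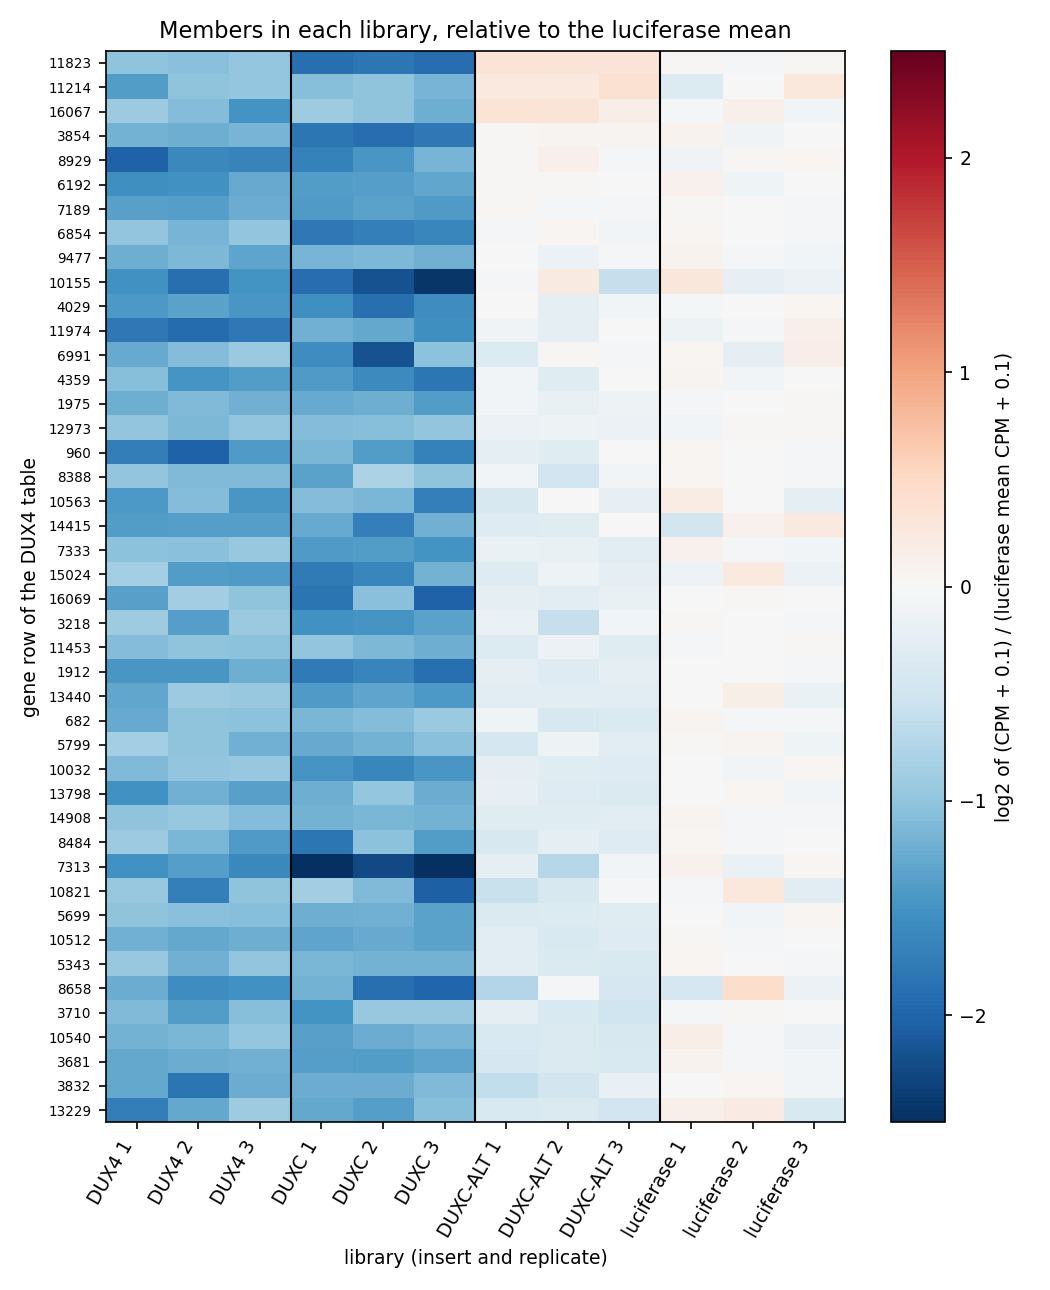
Rows are the 44 members, ordered from the highest to the lowest DUXC-ALT level relative to luciferase. Columns are the 12 libraries, and colour is the log2 ratio of CPM plus 0.1 to the luciferase mean plus 0.1. DUX4 and DUXC libraries are blue throughout, and DUXC-ALT libraries turn from pale red in the top 3 rows to pale blue at the bottom.

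Of the members with the highest read counts, rows 6192 and 7189 stood closest to luciferase with DUXC-ALT. Values are CPM not divided by gene length, so they do not rank genes by transcript number. Gene row 6192 had 41.9, 42.7 and 51.1 CPM with DUX4, 46.1, 46.8 and 49.6 CPM with DUXC, and 124, 124 and 123 CPM with DUXC-ALT, against 132, 113 and 122 CPM with luciferase. Gene row 7189 had 42.9, 42.6 and 46.6 CPM with DUX4, 41.5, 43.3 and 41.0 CPM with DUXC, and 112, 107 and 108 CPM with DUXC-ALT, against 112, 111 and 107 CPM with luciferase. In both rows the DUX4 and DUXC libraries formed a single low set, while the DUXC-ALT and luciferase libraries overlapped. Relative to luciferase, row 6192 stood at 0.371 times with DUX4, 0.390 times with DUXC and 1.01 times with DUXC-ALT. For row 7189 the values were 0.40, 0.381 and 0.990 times, in the same order of factors.

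Other abundant members were intermediate with DUXC-ALT. The row with the highest luciferase level, 14908, had 63.3, 65.9 and 60.4 CPM with DUX4, 56.0, 57.8 and 56.2 CPM with DUXC, and 103, 103 and 105 CPM with DUXC-ALT, against 133, 123 and 125 CPM with luciferase. All 4 groups were apart from one another in this row. Gene row 10512 had 45.5, 43.0 and 44.7 CPM with DUX4, 42.3, 43.5 and 41.7 CPM with DUXC, and 86.4, 80.4 and 83.4 CPM with DUXC-ALT, against 108, 103 and 105 CPM with luciferase. Its DUXC-ALT libraries were all below its luciferase libraries, at 0.795 times in the mean. Row 7333 stood at 0.498, 0.370 and 0.864 times luciferase with DUX4, DUXC and DUXC-ALT, and row 1975 at 0.442, 0.408 and 0.915 times. In both of these the DUXC-ALT libraries again lay wholly below the luciferase libraries.

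DUXC-ALT stood below luciferase in the mean of 38 of the 44 members, against 38.1% of the 12138 rows. Of the 44, 9 lay between 0.75 and 0.8 times luciferase, 19 between 0.8 and 0.9, 10 between 0.9 and 1, and 6 at 1 or above. In edgeR's test 25 members (56.8%) were called lower with DUXC-ALT, beside 25.7% of 12821 rows tested, 1 was called higher, beside 25.6%, and 18 were not called. The DUXC-ALT threshold of the choice bears on these counts, so nothing is read from them about the members as a group. The 25 called lower had log2 fold changes of -0.49 to -0.09, with SE of 0.04 to 0.15. These calls are relative to TMM scaling, under which row 7189, at 0.990 times luciferase in CPM, was called lower as well. DUXC-ALT libraries were all below the luciferase libraries in 22 members, beside 21.4% of all rows, all above in 2, beside 40.4%, and overlapping in 20, beside 38.1%.

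The calls with DUXC-ALT were also divided by level. Of the 25 members with at least 10 CPM in luciferase cells, 20 were called lower with DUXC-ALT, beside 27.3% of the 8697 rows at that level. Of the 19 members under 10 CPM, 5 were called lower, beside 24.2% of 3441 rows. The DUXC-ALT limit bears on these counts too, and the part of read depth in them was not tested. The 18 members not called had a median luciferase level of 4.33 CPM, against 36.0 CPM for the 25 called lower, and 13 of the 18 also stood below luciferase in the mean. The SE of the log2 fold change ran from 0.04 to 0.30 in the 18 members not called, so they include precisely measured rows such as 6192 as well as rows of few reads. Gene row 13229 is the member with the lowest DUXC-ALT ratio. It had 0.568, 0.818 and 1.09 CPM with DUX4, 0.808, 0.756 and 0.959 CPM with DUXC, and 1.60, 1.62 and 1.499 CPM with DUXC-ALT, against 2.30, 2.44 and 1.60 CPM with luciferase. Its luciferase replicate 3 was as low as the DUXC-ALT libraries. Gene row 3681, at a similar ratio of 0.765 but higher counts, had 55.3, 57.5 and 56.2 CPM with DUXC-ALT against 78.5, 72.3 and 70.1 CPM with luciferase, and these did not overlap.

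At the other end, 3 members stood at more than 1.2 times luciferase with DUXC-ALT in the mean. Gene row 11823 had 26.2, 25.7 and 26.9 CPM with DUX4, 14.2, 15.1 and 14.0 CPM with DUXC, and 67.5, 66.2 and 66.1 CPM with DUXC-ALT, against 54.1, 51.0 and 53.7 CPM with luciferase. This row was the single member called higher with DUXC-ALT, at 1.26 times luciferase, and was lowered to 0.274 times with DUXC. DUXC and its isoform thus stood on opposite sides of the control in this row. Gene row 11214 stood at 1.22 times luciferase with DUXC-ALT, where its libraries had 14.2, 14.3 and 15.6 CPM against 9.48, 12.1 and 14.4 CPM with luciferase. The luciferase libraries of row 11214 spread widely and overlapped with DUXC-ALT, and the row was not called. Gene row 16067 stood at 1.21 times, with 4.80, 4.74 and 4.23 CPM with DUXC-ALT against 3.64, 4.12 and 3.59 CPM with luciferase, and was not called either.

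The members with the deepest loss under DUX4 and DUXC together were mostly of low count. Gene row 7313 had 3.16, 3.49 and 2.96 CPM with DUX4, 1.40, 1.84 and 1.26 CPM with DUXC, and 7.80, 5.61 and 8.83 CPM with DUXC-ALT, against 9.91, 8.23 and 9.47 CPM with luciferase. This row stood at 0.172 times luciferase with DUXC, the lowest value among the members for either factor. Gene row 11974 had 10.4, 9.37 and 10.4 CPM with DUX4, 15.7, 14.7 and 12.3 CPM with DUXC, and 33.9, 30.9 and 36.0 CPM with DUXC-ALT, against 33.2, 35.4 and 39.5 CPM with luciferase. It had the lowest DUX4 ratio among the members, 0.281 times luciferase. Its DUXC-ALT and luciferase libraries overlapped, but the row was called lower with DUXC-ALT in edgeR's test, as were rows 7313 and 1912. Gene row 1912 stood at 0.386 times luciferase with DUX4, 0.294 times with DUXC and 0.831 times with DUXC-ALT, from a luciferase level of 69.4 ± 1.22 CPM (SD, n = 3).

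Low counts limit the precision in rows 10155 and 8658. In row 10155 the DUX4 libraries held 5, 4 and 5 reads, the DUXC libraries 4, 3 and 2 and the DUXC-ALT libraries 21, 22 and 13, against 25, 16 and 20 reads with luciferase. In row 8658 the DUX4 libraries held 9, 8 and 7 reads, the DUXC libraries 11, 6 and 5 and the DUXC-ALT libraries 17, 25 and 20, against 20, 35 and 27 reads with luciferase. These are the 2 members nearest the luciferase minimum, at 1.08 and 1.47 CPM, and 7 of the 44 had fewer than 10 reads in at least 1 library. Rows 8929, 960 and 4029 completed the 8 deepest, at 0.296, 0.306 and 0.375 times luciferase with DUX4 and 0.372, 0.380 and 0.318 times with DUXC.

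Because the means of all libraries chose the members, the same choice was made on 2 libraries per group and read out in the libraries left out. This gave 41, 45 and 42 rows for the 3 replicate numbers, of which 32, 36 and 33 were among the 44. In the left-out libraries the median row stood at 0.482, 0.460 and 0.457 times the left-out luciferase library with DUX4, at 0.416, 0.414 and 0.392 times with DUXC, and at 0.867, 0.831 and 0.914 times with DUXC-ALT. The DUX4 medians in the choosing libraries had been 0.443, 0.439 and 0.445 times, slightly lower. Over all 12138 rows, the medians in the same libraries were 0.978, 0.974 and 0.981 times with DUX4, 0.994, 0.989 and 0.996 times with DUXC, and 1.05, 1.06 and 1.06 times with DUXC-ALT. Every chosen row remained below the left-out luciferase library with DUX4 and with DUXC, beside 40.1%, 40.9% and 39.6% of all rows. In 41 of 41, 44 of 45 and 41 of 42 rows, the DUX4 and DUXC values both lay below the DUXC-ALT value, beside 45.3%, 46.1% and 45.5% of all rows. All 3 ratio limits of the rule were met again by 16, 20 and 22 rows, beside 0.313%, 0.453% and 0.437% of all rows. Some left-out values lay far from the limits, up to 0.993 times luciferase with DUX4 and 0.926 times with DUXC, and down to 0.294 times with DUXC-ALT. The order of the groups thus recurred in most chosen rows in the left-out libraries, while the ratio limits were met again in fewer of them. The left-out libraries also helped to choose the 44 members, and the replicate spread may be technical. The recurrence therefore describes how repeatable the values were and is not support for the members. With 1 library per group there is no test.

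**Figure D3:**
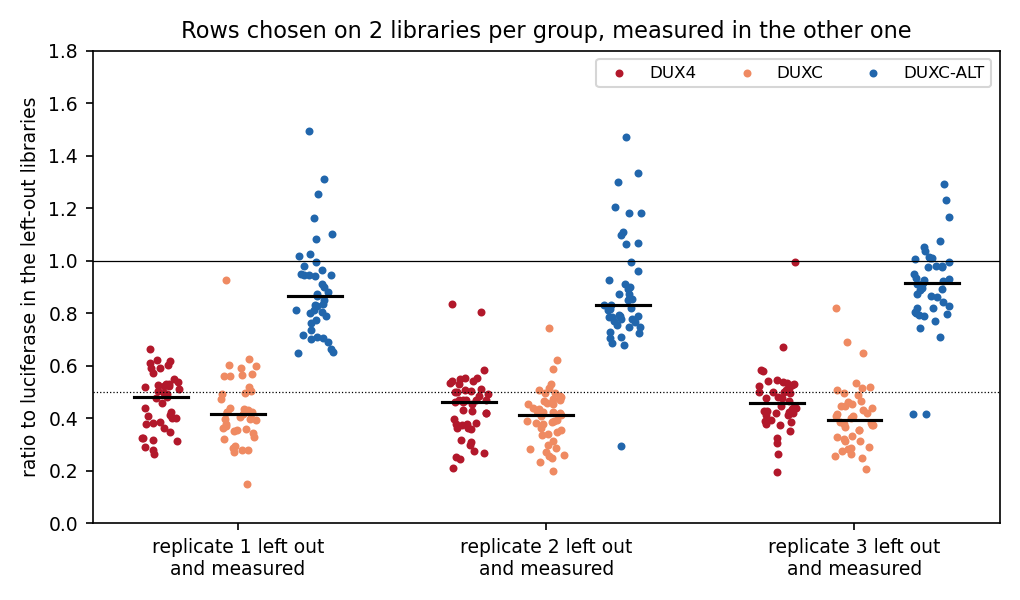
Points are gene rows chosen on 2 libraries per group, plotted by their ratio to luciferase in the left-out libraries of replicate 1, 2 or 3. Bars are medians, the dotted line marks 0.5 and the solid line 1. DUX4 and DUXC medians lie between 0.392 and 0.482, and DUXC-ALT medians between 0.831 and 0.914.

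DUXC and DUX4 were then compared directly. The rule set the same upper limit for both and no order between them, and both groups are tagged doxycycline. Of the 44 members, 42 had enough reads to be tested, 11 were lower with DUXC than with DUX4 and 1 was higher (edgeR's quasi-likelihood test, Benjamini-Hochberg adjustment at 0.05). The share called was 28.6% of the tested members, beside 66.1% of 13324 rows tested, with 33.0% lower and 33.1% higher. The limit of 0.5 times luciferase, set for both factors, bears on this share, so nothing is read from it about the members. The median log2 fold change of DUXC over DUX4 was -0.11 for the 42 members and -0.00 for all rows tested. In CPM, DUXC stood below DUX4 in 29 of 44 members and in 50.7% of the 12138 rows.

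The 4 largest of the differences toward lower levels with DUXC were in rows 7313, 11823, 6854 and 3854. Row 7313, with its CPM given above, differed by -1.08 ± 0.21 (log2 of DUXC over DUX4 ± SE, adjusted p = 8.47e-06 in edgeR). In row 11823 the difference was -0.85 ± 0.07 (log2 ± SE, adjusted p = 2.55e-16 in edgeR). Gene row 6854 had 22.2, 23.5 and 24.9 CPM with DUXC against 39.0, 34.1 and 38.8 CPM with DUX4, a difference of -0.66 ± 0.06 (log2 ± SE, adjusted p = 3.19e-14 in edgeR). In gene row 3854 the DUXC libraries had 21.9, 20.5 and 22.2 CPM against 33.6, 32.7 and 34.2 CPM with DUX4, a difference of -0.63 ± 0.06 (log2 ± SE, adjusted p = 1.13e-13 in edgeR). The libraries of the 2 factors did not overlap in any of these 4 rows, which was a condition for naming them. Rows 6854 and 3854 stood at 0.988 and 1.04 times luciferase with DUXC-ALT, so in them DUXC stood below DUX4 while DUXC-ALT stood near the control. The only member higher with DUXC was row 11974, at 0.52 ± 0.10 (log2 ± SE, adjusted p = 3.01e-06 in edgeR). It too showed no overlap between the DUXC and DUX4 libraries, as the same condition required. The 7 other members lower with DUXC had log2 fold changes from -0.51 to -0.15, with row 14908 the smallest at -0.15 ± 0.05 (SE, adjusted p = 0.00337 in edgeR).

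For the 30 tested members that were not called, log2 fold changes of DUXC over DUX4 ran from -0.56 to 0.35 and were below 0 in 16. Their SE ran from 0.05 to 0.38, and 18 of the 30 had a 95% interval (normal approximation from the SE) within 1.5-fold in both directions. The abundant rows 6192, 7189 and 10512 were among them, at 0.08 ± 0.06, -0.06 ± 0.05 and -0.06 ± 0.05 (SE). For the other 12 the interval reached beyond 1.5-fold, so the difference was not bounded there. This came from the SE, from an estimate away from 0, or from both. Row 960, at 0.35 ± 0.18 (SE), had a smaller SE than row 10563, at 0.04 ± 0.23 (SE), whose interval stayed within 1.5-fold.

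**Figure D4:**
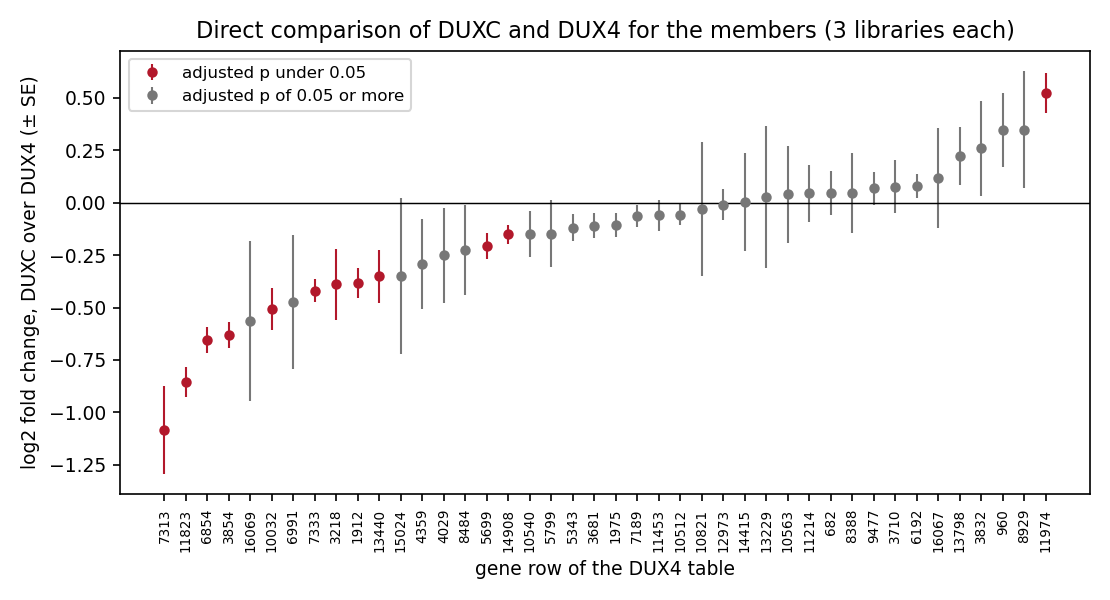
Points are the 42 members tested, with their log2 fold change of DUXC over DUX4 and its SE as a bar (3 libraries per group). Red marks the 12 members past the adjusted threshold of 0.05. Of these, 11 lie below 0 and only row 11974 above.

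Against DUXC-ALT, which carries the same doxycycline tag, the median member stood at 0.5004 times with DUX4 (0.288 to 0.615) and at 0.441 times with DUXC (0.213 to 0.600). Over the 12138 rows the medians were 0.914 and 0.952 times. The highest values that the rule allows are 0.667 times, so these, too, are a description. The lowest values with DUXC belonged to row 7313, at 1.498 CPM with DUXC against 7.41 CPM with DUXC-ALT, and row 11823, at 14.4 CPM with DUXC against 66.6 CPM with DUXC-ALT.

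The members were set beside the 90 rows at no more than 0.5 times luciferase with all 3 factors. The 70 rows that lay between these sets with DUXC-ALT adjoin both and were not compared. With DUX4 the median stood at 0.441 times luciferase for the 44 members and at 0.268 times for the 90 rows, and with DUXC at 0.390 times for the members and 0.304 times for the 90 rows. With DUXC-ALT the values were 0.857 times for the members and 0.327 times for the 90 rows. In the direct comparison of DUXC with DUX4, 11 of the 42 members tested were lower and 1 was higher with DUXC, while of the 67 of the 90 rows that could be tested 17 were lower and 23 higher. These lists were cut by different limits on the same values, and the difference between them was not tested.

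Levels in luciferase cells also differed between the 2 sets. The median luciferase level was 14.6 CPM for the members, 6.38 CPM for the rows lowered with all 3 factors and 24.7 CPM for all 12138 rows. At 30 CPM or more stood 17 of the 44 members (38.6%), 15 of the 90 (16.7%) and 44.6% of all rows. The median coefficient of variation between luciferase libraries was 4.57% for the members, 10.9% for the 90 rows and 4.92% for all rows. The 90 rows were thus lower in level and noisier than the members, and the part of counting noise in that difference was not tested. The 44 members lay between rows 682 and 16069 of the 17070 rows of the DUX4 table. None, that is 0, were in consecutive rows of that table, and the closest pair was 2 rows apart (16067 and 16069). In the DUXC and DUXC-ALT tables this pair was in consecutive rows (16092 and 16093, and 14921 and 14922). The order of rows is not explained in the files. For 1 member the 3 luciferase counts also occur in another row. Rows were joined by their order among rows with at least 7 luciferase reads, and the luciferase counts were identical in the 3 tables at every joined row.

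**Figure D5:**
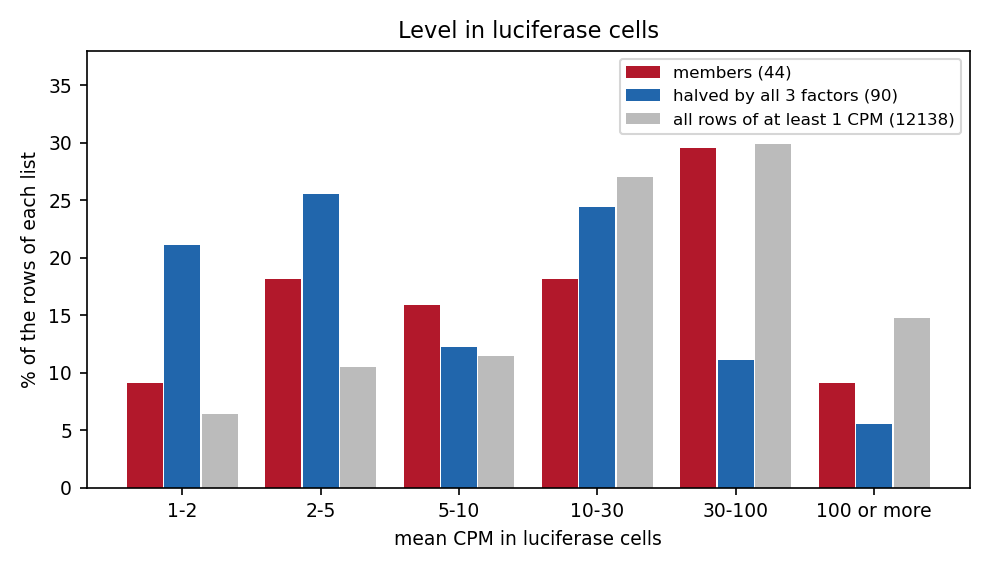
Bars give the percentage of each list by mean CPM in luciferase cells, for the 44 members, the 90 rows at no more than 0.5 times luciferase with all 3 factors, and all 12138 rows of at least 1 CPM. The 30 to 100 CPM class holds 29.5% of the members, 11.1% of the 90 rows and 29.9% of all rows.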

How the data were processed

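The authors deposited raw gene counts, whole-number reads per row, in 3 tables, each with the 3 libraries of 1 factor and the same 3 luciferase libraries. Per the submitters' processing notes, CASAVA, TopHat2 2.1.0, Bowtie2 2.2.6, DESeq2 and the canFam3 build were used, with no roles named. The counting tool, its use of strand and its treatment of multi-mapped reads are not given in those sources, so near-identical or overlapping genes may share reads. CPM were computed on the column total of each gene table. The members and lists were chosen with earlier results of these data known. Tests used edgeR 4.0.16 in R 4.3.3 (TMM, filterByExpr, robust quasi-likelihood), fitted on all rows of the 6 libraries compared. The DUXC fit against DUX4 used the 14736 joined rows. Alternatives were DESeq2 1.42.0, other scalings, no filter, a replicate block, 1 fit over 12 libraries and each library left out. The edgeR step was run on simulated counts with the same dispersion in every row. The real rows differ in spread, so that run does not give their error rates. Named rows were the 8 lowest with DUX4 and DUXC, the 6 highest in luciferase and the 3 highest and 3 lowest with DUXC-ALT. Also named were up to 4 in each direction for DUXC over DUX4, and those beside each threshold. The rows for DUXC over DUX4 had to pass the edgeR threshold with no overlap between the libraries of the 2 factors. Beside the other thresholds, the nearest rows were 7333 and 11823 (0.498 and 0.497) inside and 13178 and 10190 (0.503 and 0.504) outside for DUX4. For DUXC they were 8388 and 16067 (0.491 and 0.488) inside and 10811 and 6102 (0.509 and 0.513) outside. For luciferase, rows 10371 and 10333 lay outside at 0.794 and 0.603 CPM. Repeat tables and normalized tables were not used here.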

Additional observations from a re-analysis of the deposited data

How the results depend on the processing

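The number of members was 22 with 1 CPM added, 10 with a limit of 0.4 times luciferase for DUX4 and DUXC, and 16 with a limit of 0.9 times for DUXC-ALT. With TMM and median-of-ratios scaling it was 41 and 38, with 38 of the 44 kept in each. The named rows 3681, 3832, 8658 and 13229 were members under neither of these scalings. Leaving out 1 library gave 40 to 46 members. In all, 20 of the 44 were kept under both scalings and with each of the 12 libraries left out. The counts called lower with DUX4 and with DUXC were 44 under every alternative run, which the choice of the members largely fixes, so they say nothing about stability. The count called lower with DUXC-ALT was 19 with DESeq2 and 20 to 27 with a library left out. The 1 called higher with DUXC-ALT became 2 with the replicate block and 1 to 2 with a library left out (2 without luciferase replicate 3). For DUXC against DUX4, 11 lower and 1 higher became 9 and 1 with DESeq2, 16 and 1 in the fit over all 12 libraries, and 9 to 11 and 1 to 3 with a library left out. Without DUX4 replicate 3 there were 3 higher, and without DUXC replicate 3 there were 2. The replicate block gave 11 and 1. Deviations of libraries of the same number correlated at only -0.12 to 0.02 between groups. For DUXC-ALT and luciferase each library correlated best with its own number, but at no more than 0.02. These values do not settle whether the numbers pair the libraries. The 5 rows named for DUXC over DUX4 kept their call and direction throughout. Of 649 values recomputed for named rows, 623 moved by less than the replicate spread and 26 by more, and 0 reversed. Of a further 108 values marked as main results, 101 moved by less and 7 by more. In members with few reads, small differences were not detectable at this depth.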
